A study of Mus musculus with 15 samples.

Results

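Cytochrome P450 genes were examined in mouse small intestinal organoids that overexpress the transcription factor SOX9. Members were all genes whose symbol reads Cyp, a number, letters and a final number, 95 of the 78298 genes in the count files. Their family numbers gave 3 Cyp1 genes, 50 Cyp2, 7 Cyp3, 17 Cyp4 and 18 genes of family 7 and above. A further 42 Cyp symbols lay outside this pattern, mostly pseudogenes but also Cyp51, Cyp3a41a, Cyp3a41b, Cyp4a12a, Cyp4a12b and Cyp4a30b.

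Cytochromes P450 are haem enzymes that use electrons from a reductase to insert oxygen into drugs, dietary compounds, fatty acids, sterols and vitamins. Families 1 to 3 are best known for foreign compounds, many Cyp2 and Cyp4 enzymes oxidise fatty acids and eicosanoids, and the higher families hold mainly sterol, bile acid, steroid and vitamin enzymes. In the small intestine the villus enterocyte is the main site of P450 metabolism, and nuclear receptors such as PXR (Nr1i2), CAR (Nr1i3) and HNF4A, together with the aryl hydrocarbon receptor AHR, control many of these genes.

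Poly-A RNA was sequenced from 5 organoid conditions with 3 libraries each, all from stable lentiviral lines under puromycin selection. The paper gives a wild-type background for the stable SOX9-Halo and SOX9-mEGFP organoids that were transduced again. Its text states no background for the sequenced Halo-NLS line. The mice of the study were C57BL/6J or were bred with that strain. The control, Halo-NLS, carries V5-tagged Halo with a nuclear localisation signal, and SOX9-Halo and SOX9-mEGFP carry tagged SOX9, every transgene being driven by the weak ubiquitous L30 promoter. SOX9-mEGFP_budding and SOX9-Halo_budding kept the budding shape of control organoids, whereas SOX9-mEGFP_spheroid and SOX9-Halo_spheroid came from later passages and had become spherical. The methods also describe a further transduction of both SOX9 lines with a second transgene, H2B-mScarletI in SOX9-mEGFP and H2B-mEGFP in SOX9-Halo. It was selected with Geneticin in SOX9-mEGFP and with Zeocin in SOX9-Halo. The paper does not state which sequenced libraries carry it. Shape, passage, any second transgene and its selection therefore cannot be told apart. The paper also places SOX9-mEGFP_spheroid before SOX9-Halo_spheroid in the progression of the spheroid shape, an order that went with time in culture. Line, passage and progression therefore cannot be told apart between the spheroid conditions. Each condition is 1 line, and the p-values measure the spread between libraries of that line, taken at neighbouring passages.

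Each library held 28062722 to 40559766 reads assigned to genes. Levels are given as CPM, read counts scaled to library size with TMM factors, and a mean comes with its SD over 3 libraries. Sox9, in which endogenous and transgene reads cannot be told apart, was at 15.8 ± 6.92 CPM (SD, n = 3) in Halo-NLS and at 288 ± 81.7 CPM in SOX9-mEGFP_budding, 490 ± 223 in SOX9-mEGFP_spheroid and 399 ± 74 in SOX9-Halo_spheroid. SOX9-Halo_budding varied most, with 39.8, 314 and 204 CPM, so that its replicate 1 lay closest to the control libraries (9.10 to 22.9 CPM). The summed level of 5 epithelial markers was 4259 CPM or more in every library. The defining markers of liver cells, fibroblasts, immune and endothelial cells were near 0, for example Alb at most 0.972 CPM, Col1a1 at most 1.13, Ptprc at most 0.637 and Pecam1 at most 0.752. Of 6 hepatocyte markers only Ttr, also made outside the liver, was abundant. In contrast, 10 enterocyte markers summed to 8177 to 12969 CPM in Halo-NLS, 2577 to 9779 in SOX9-mEGFP_budding, 5470 to 9764 in SOX9-Halo_budding, 1296.0 to 1598 in SOX9-mEGFP_spheroid and 725 to 811 in SOX9-Halo_spheroid. Against Halo-NLS, 9 of these 10 markers were lower in SOX9-Halo_spheroid and 8 in SOX9-mEGFP_spheroid, with median log2 changes of -10.32 and -4.38. What remained of the sum was mostly Anpep and Vil1: Anpep, which was not called against Halo-NLS, had 596, 602 and 705 CPM in SOX9-Halo_spheroid and 148, 171 and 299 in SOX9-mEGFP_spheroid, and Vil1 had 138, 119 and 96.7 and 840.5, 687 and 775. Fewer enterocytes and less RNA of a gene per cell cannot be told apart in these bulk libraries, and the part of this loss in the P450 results was not tested.

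P450 transcripts were abundant in control organoids and scarce in spheroids. The 95 members summed to 10278, 9536 and 7456 CPM in the 3 Halo-NLS libraries. The sums were 7568, 7412 and 3741 CPM in SOX9-mEGFP_budding and 8534, 5986 and 6327 CPM in SOX9-Halo_budding. SOX9-mEGFP_budding replicate 3 lay apart from the other 2 libraries of its condition, and it also held the lowest enterocyte marker sum of the budding and control libraries (2577 CPM). Spheroid libraries lay below all others, at 2023, 1505 and 1352 CPM in SOX9-mEGFP_spheroid and at 586, 594 and 671 CPM in SOX9-Halo_spheroid. The mean of SOX9-Halo_spheroid (617 ± 47.2 CPM, SD, n = 3) was below that of SOX9-mEGFP_spheroid (1627 ± 352 CPM), and the libraries did not overlap.

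**Figure D1:**
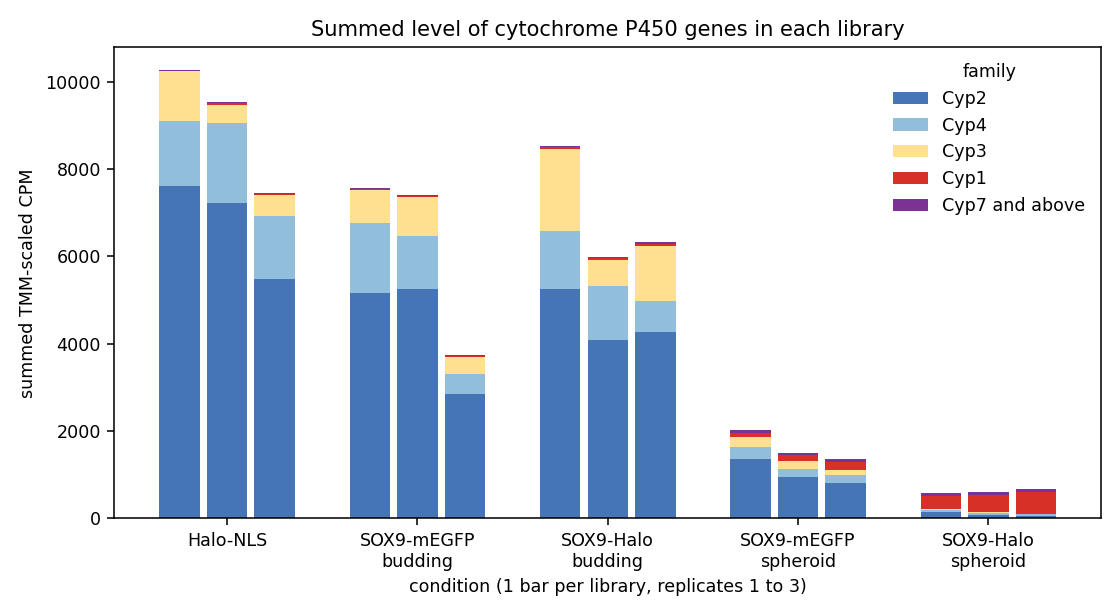
Summed TMM-scaled CPM of the 95 cytochrome P450 genes, 1 bar per library, stacked by family; conditions are on the x axis. The 6 spheroid bars sit below all 9 others, and the Cyp1 share dominates the 3 SOX9-Halo_spheroid bars.

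The makeup changed as well as the amount. In Halo-NLS, Cyp2 genes gave 74.5% of the summed P450 CPM, Cyp4 genes 17.4%, Cyp3 genes 7.55% and Cyp1 genes 0.205%. Cyp2 genes still gave 64.2% in SOX9-mEGFP_spheroid, where Cyp1 genes had 8.48%. In SOX9-Halo_spheroid the Cyp1 family gave 64.7%, Cyp2 14.4% and family 7 and above 10.4%. Corrected for exon length, Cyp2c55 led in Halo-NLS (765 ± 93.5 CPM per kb, SD, n = 3), ahead of Cyp2c66 (456 ± 198 CPM per kb) and Cyp2c65 (446 ± 164 CPM per kb), which did not differ from each other beyond their spread. Cyp1b1 led in SOX9-Halo_spheroid (55.0 ± 14.2 CPM per kb), followed by Cyp20a1 (17.1 ± 1.72) and Cyp2s1 (14.0 ± 9.85), the last 2 overlapping within their spread.

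Conditions were compared with the quasi-likelihood test of edgeR, fitted to all 15 libraries. Differences count as called, and genes as risen or fallen, where the adjusted p did not exceed 0.01, the fold reached 2 and the normalized counts averaged 10 or more. Only 46 members passed the filter on low counts and were tested. The other 49 reached at most 26 reads in any library, 28 of them never more than 3, and they include 29 Cyp2 genes and 11 genes of family 7 and above. Among them were Cyp7a1, the rate-limiting enzyme of bile acid synthesis, with at most 6 reads, Cyp2e1 with at most 6, the retinoic acid hydroxylase Cyp26a1 with at most 23 and Cyp1a2 with at most 8. Cyp2c50 and Cyp8b1 had no read in any library. A member that passed the filter through a condition in which it was high could only be lower elsewhere, so the counts below describe tested members and not the whole set.

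Between SOX9-Halo_spheroid and Halo-NLS, 33 tested members were lower and 7 higher, against 15.3% lower and 13.6% higher among all 17560 tested genes. The median change was -4.81 (log2) over the tested members, -4.22 with members near 0 counts set at their bound, and -0.01 over all tested genes. Between SOX9-mEGFP_spheroid and Halo-NLS, 26 members were lower and 8 higher, against 12.1% and 15.3% of all tested genes, and the median change was -2.32 (-2.15 with bounds, 0.03 over all genes). Without Halo-NLS replicate 1, 5 rather than 8 members were higher in SOX9-mEGFP_spheroid. Both comparisons share the Halo-NLS libraries. By family, 20 of the 21 tested Cyp2 genes, 4 of 7 Cyp3, 8 of 9 Cyp4 and 1 of 2 Cyp1 genes fell in SOX9-Halo_spheroid, whereas 5 of the 7 tested genes of family 7 and above rose and the other 2 were not called. In SOX9-mEGFP_spheroid, 17 Cyp2, 2 Cyp3 and 7 Cyp4 genes fell, and again 5 genes of family 7 and above rose and the other 2 were not called.

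The Cyp2 family carried most of the loss. Cyp2c55, an arachidonic acid hydroxylase of the gut, had the highest level per kb in Halo-NLS and both budding conditions. Its levels were 2095, 1979 and 1646 CPM in Halo-NLS, 1398, 1613 and 959 in SOX9-mEGFP_budding and 1400, 1171 and 1131 in SOX9-Halo_budding. They were 409, 197 and 93.4 CPM in SOX9-mEGFP_spheroid and 0.918, 0.677 and 2.04 in SOX9-Halo_spheroid. The spheroid libraries did not overlap with any other, nor with those of the other spheroid line. Against Halo-NLS the log2 fold change was -3.03 ± 0.46 (SE, adjusted p = 9.9e-05, edgeR) in SOX9-mEGFP_spheroid and -10.605 ± 0.65 (adjusted p = 1.1e-08) in SOX9-Halo_spheroid.

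Its neighbour Cyp2c65 had 1156, 896 and 526 CPM in Halo-NLS, 218, 160 and 91.4 in SOX9-mEGFP_spheroid and 0.424, 0.282 and 0.671 in SOX9-Halo_spheroid. The log2 fold changes were -2.46 ± 0.39 (adjusted p = 0.00014, edgeR) and -10.85 ± 0.58 (adjusted p = 4e-09). Cyp2d26 had 846, 1000 and 802 CPM in Halo-NLS and 88.8, 37.9 and 25.7 in SOX9-mEGFP_spheroid, and at most 0.563 in SOX9-Halo_spheroid. Its log2 fold changes were -4.12 ± 0.47 (adjusted p = 6.5e-06) and -11.275 ± 0.655 (adjusted p = 7.5e-09). Cyp2c68 had log2 fold changes of -3.89 ± 0.45 in SOX9-mEGFP_spheroid and -11.22 ± 0.685 in SOX9-Halo_spheroid (adjusted p = 8.9e-06 and 1e-08), although 28.7% of the 75-base windows of its transcript also occur in another Cyp gene, so that unique alignment can miss part of its reads. Cyp2c68 had only 1, 3 and 4 reads in the SOX9-Halo_spheroid libraries. In each of these genes the SOX9-mEGFP spheroids lay between the control and the SOX9-Halo spheroids.

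The Cyp2c genes lie side by side on chromosome 19. From Cyp2c55 (chr19:38995462-39031144, GRCm39) and Cyp2c65 (chr19:39049459-39082388) to Cyp2c70 (chr19:40141797-40175777) the cluster holds 14 members, and Cyp2c23 lies apart from it. Of the 15 Cyp2c members 10 were tested, and 10 fell in SOX9-Halo_spheroid and 9 in SOX9-mEGFP_spheroid against Halo-NLS. The 656 tested genes of chromosome 19 as a whole had a median change of -0.06 and -0.79 in these comparisons and of 0.56 between SOX9-Halo_spheroid and SOX9-mEGFP_spheroid, whereas the 10 Cyp2c genes had a median of -5.615 in the last. The 150 bases before the start of the first 2 genes of the cluster are shown because Cyp2c55 had the highest level per kb and Cyp2c65 the lowest adjusted p for the difference between lines described further on. They are given 5′ to 3′ on the gene's strand, for Cyp2c55 from chr19:38995312-38995461, plus strand, and for Cyp2c65 from chr19:39049309-39049458, plus strand, with capitals for TATAAA or for CAAAGTC, letters of HNF4 binding sites:
Cyp2c55: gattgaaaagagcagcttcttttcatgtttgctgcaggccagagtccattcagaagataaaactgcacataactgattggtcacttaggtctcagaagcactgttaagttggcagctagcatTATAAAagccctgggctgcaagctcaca
Cyp2c65: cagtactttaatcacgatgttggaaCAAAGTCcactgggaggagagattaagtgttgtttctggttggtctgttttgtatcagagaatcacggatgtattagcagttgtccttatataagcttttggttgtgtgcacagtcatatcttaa

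Not every Cyp2 gene followed this order. Cyp2c37 and Cyp2c38 were almost gone from the spheroids of both lines. Cyp2c37 had 17.9, 20.3 and 21.8 CPM in Halo-NLS and a single read over the 3 libraries of each spheroid condition. The ratio of control to spheroid was 2024 (95% counting interval 363 to 79980.2) for SOX9-Halo_spheroid and 2133 (382 to 84315.5) for SOX9-mEGFP_spheroid. Cyp2c38 had 3 reads in each spheroid condition, with ratios of 457 (156 to 2221) and 482 (165 to 2342). Cyp2w1, known from fetal gut and colon tumours, was also low in both but kept the order, its difference between the spheroid conditions not being called. It had 35.0, 61.4 and 15.6 CPM in Halo-NLS, 0.476, 0.328 and 0.227 in SOX9-mEGFP_spheroid and 4 reads in all in SOX9-Halo_spheroid. Its log2 fold change in SOX9-mEGFP_spheroid was -6.74 ± 0.91 (adjusted p = 3.5e-05, edgeR), and the ratio for SOX9-Halo_spheroid was 964 (376 to 3539). These intervals cover counting error only.

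Cyp2s1, an epithelial gene known as an AHR target and chosen after its values were seen, went another way. It had 226, 277 and 241 CPM in Halo-NLS, 393, 399 and 502 in SOX9-mEGFP_spheroid and 124, 53.0 and 30.4 in SOX9-Halo_spheroid. In SOX9-mEGFP_spheroid its level of 87.2 ± 12.4 CPM per kb did not differ beyond the spread from that of Cyp2c55 (93.5 ± 64.5 CPM per kb), the highest there. Its change of 0.80 ± 0.47 against Halo-NLS was not called (adjusted p = 0.17, edgeR), while that of -1.845 ± 0.48 in SOX9-Halo_spheroid was (adjusted p = 0.0052). Cyp2t4 was the 1 tested Cyp2 gene not called in SOX9-Halo_spheroid, but 98.2% of its exons overlap Egln2. Reads from that overlap are ambiguous in an unstranded count and were left out, so its counts can miss most of its RNA.

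**Figure D2:**
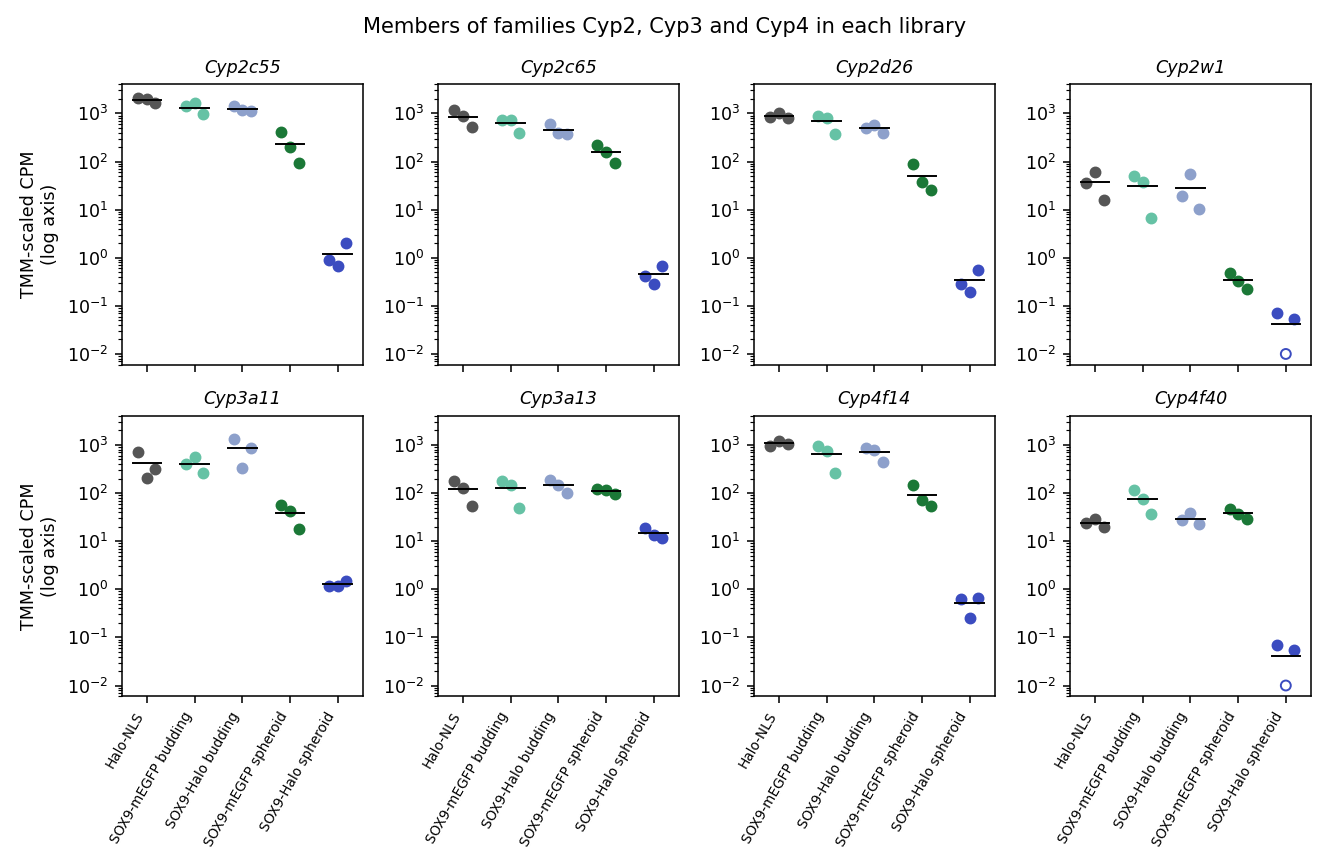
TMM-scaled CPM on a log axis in each library (points) with the mean of each condition (line) for 8 Cyp2, Cyp3 and Cyp4 genes; open circles at the bottom mark libraries with 0 reads. All 8 are lowest in SOX9-Halo_spheroid, while in SOX9-mEGFP_spheroid Cyp3a13 overlaps with Halo-NLS and Cyp4f40 lies above it.

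Cyp3a enzymes oxidise a wide range of drugs and steroids. Cyp3a11, the main inducible member and a PXR target, varied widely before the spheroid stage, with 723, 205 and 323 CPM in Halo-NLS, 401, 562 and 264 in SOX9-mEGFP_budding and 1348, 333 and 871 in SOX9-Halo_budding. It had 55.9, 42.4 and 17.9 CPM in SOX9-mEGFP_spheroid and 1.17, 1.16 and 1.48 in SOX9-Halo_spheroid. The log2 fold changes against Halo-NLS were -3.43 ± 0.57 (adjusted p = 0.00022, edgeR) and -8.36 ± 0.73 (adjusted p = 2.8e-07). Cyp3a25 followed the same order, with means of 150 ± 83.7, 20.7 ± 13.4 and 0.101 ± 0.0633 CPM (SD, n = 3) in Halo-NLS, SOX9-mEGFP_spheroid and SOX9-Halo_spheroid. Cyp3a59 had no read in SOX9-Halo_spheroid, at least 4.63-fold less than in Halo-NLS with a floor of 3 reads per library. Cyp3a57, chosen after its values were seen, rose in SOX9-mEGFP_spheroid, from at most 0.150 CPM in Halo-NLS to between 0.426 and 0.656 (2.31 ± 0.61, adjusted p = 0.0064, edgeR), still a low level, and DESeq2 did not call it.

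Cyp3a13 lies at chr5:137891193-137919882, apart from the other 6 members, whose cluster runs from Cyp3a57 (chr5:145282089-145327736) to Cyp3a59 (chr5:146016067-146050097). It had 177, 128 and 52.8 CPM in Halo-NLS and 120, 118 and 94.7 in SOX9-mEGFP_spheroid, which overlap. Its change of -0.11 ± 0.45 in SOX9-mEGFP_spheroid was not called (adjusted p = 0.86, edgeR). In SOX9-Halo_spheroid it had 19.2, 13.2 and 11.8 CPM, a log2 fold change of -3.02 ± 0.48 (adjusted p = 0.00011). Exons of the unnamed gene Gm36551 overlap 21.3% of its exons.

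Among Cyp4 genes, Cyp4f14, an omega-hydroxylase of leukotriene B4, had the highest level per kb in every condition except SOX9-Halo_spheroid, where Cyp4f16 did. It had 970, 1237 and 1054 CPM in Halo-NLS, 148, 70.4 and 53.8 in SOX9-mEGFP_spheroid and 0.635, 0.254 and 0.644 in SOX9-Halo_spheroid. Its log2 fold changes were -3.58 ± 0.49 (adjusted p = 4e-05, edgeR) and -11.05 ± 0.70 (adjusted p = 1.4e-08). Cyp4v3, a fatty acid omega-hydroxylase, had log2 fold changes of -5.53 ± 0.54 in SOX9-mEGFP_spheroid and -8.99 ± 0.66 in SOX9-Halo_spheroid. Cyp4f16 fell less and to like levels, from 184 ± 37.0 CPM (SD, n = 3) in Halo-NLS to 36.5 ± 5.21 and 24.6 ± 2.42. Cyp4f17, chosen after its values were seen, was the 1 Cyp4 gene that rose, from 1.95 to 3.49 CPM in Halo-NLS to 4.81 to 6.10 and 5.54 to 6.71. Cyp4f40 was nearly absent from SOX9-Halo_spheroid. It had 23.9, 28.8 and 20.2 CPM in Halo-NLS, 47.8, 36.5 and 29.0 in SOX9-mEGFP_spheroid, all above control, and 4 reads in all in SOX9-Halo_spheroid, a ratio of 617 (95% counting interval 241 to 2268) below Halo-NLS. Its change in SOX9-mEGFP_spheroid, 0.64 ± 0.37, was not called (adjusted p = 0.17).

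The 2 tested Cyp1 genes moved in opposite directions in SOX9-Halo_spheroid. Cyp1b1, which hydroxylates oestrogens, retinoids and polycyclic hydrocarbons, had 5, 8 and 13 reads in the Halo-NLS libraries, or 0.195, 0.274 and 0.487 CPM. It had 0.615, 1.55 and 8.93 CPM in SOX9-mEGFP_budding and 0.285, 0.464 and 4.86 in SOX9-Halo_budding, where the replicate 3 library was the highest in each. In spheroids it had 102, 112 and 175 CPM (SOX9-mEGFP) and 295, 400 and 500 CPM (SOX9-Halo), and all 6 libraries lay above every other. The log2 fold changes against Halo-NLS were 8.65 ± 1.22 (adjusted p = 5.1e-05, edgeR) and 10.27 ± 1.29 (adjusted p = 1.1e-05). The spheroid libraries of the 2 lines did not overlap, but their difference of 1.62 ± 0.84 was not called (adjusted p = 0.19).

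Cyp1a1, the classic AHR target that oxidises polycyclic hydrocarbons, was low in SOX9-Halo_spheroid. It had 12.9, 29.9 and 11.8 CPM in Halo-NLS, 27.6, 31.3 and 9.42 in SOX9-mEGFP_budding and 31.9, 48.7 and 51.0 in SOX9-Halo_budding. It had 10.6, 7.76 and 6.84 CPM in SOX9-mEGFP_spheroid and 0.600, 0.705 and 0.859 in SOX9-Halo_spheroid. The log2 fold change of -4.65 ± 0.50 in SOX9-Halo_spheroid was called (adjusted p = 2.5e-06, edgeR). The change of -1.12 ± 0.42 in SOX9-mEGFP_spheroid was not (adjusted p = 0.039). Cyp1a2 was not tested.

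The 150 bases before each start are shown for these 2 genes because they changed in opposite directions. GCGTG, the core letters of the site bound by AHR with ARNT, is in capitals where it or its reverse complement CACGC occurs. In the promoter window of 250 bases before to 50 after the start it was found 4 times for Cyp1a1 and 1 time for Cyp1b1. The sequences come from chr9:57603992-57604141, plus strand, and from chr17:80022533-80022682, minus strand, of GRCm39:
Cyp1a1: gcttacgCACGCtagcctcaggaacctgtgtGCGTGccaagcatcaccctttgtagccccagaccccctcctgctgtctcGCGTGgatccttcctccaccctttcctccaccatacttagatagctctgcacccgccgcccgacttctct
Cyp1b1: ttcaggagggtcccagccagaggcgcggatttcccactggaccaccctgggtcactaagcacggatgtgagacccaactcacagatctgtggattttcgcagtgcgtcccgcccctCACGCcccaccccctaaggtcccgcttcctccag

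**Figure D3:**
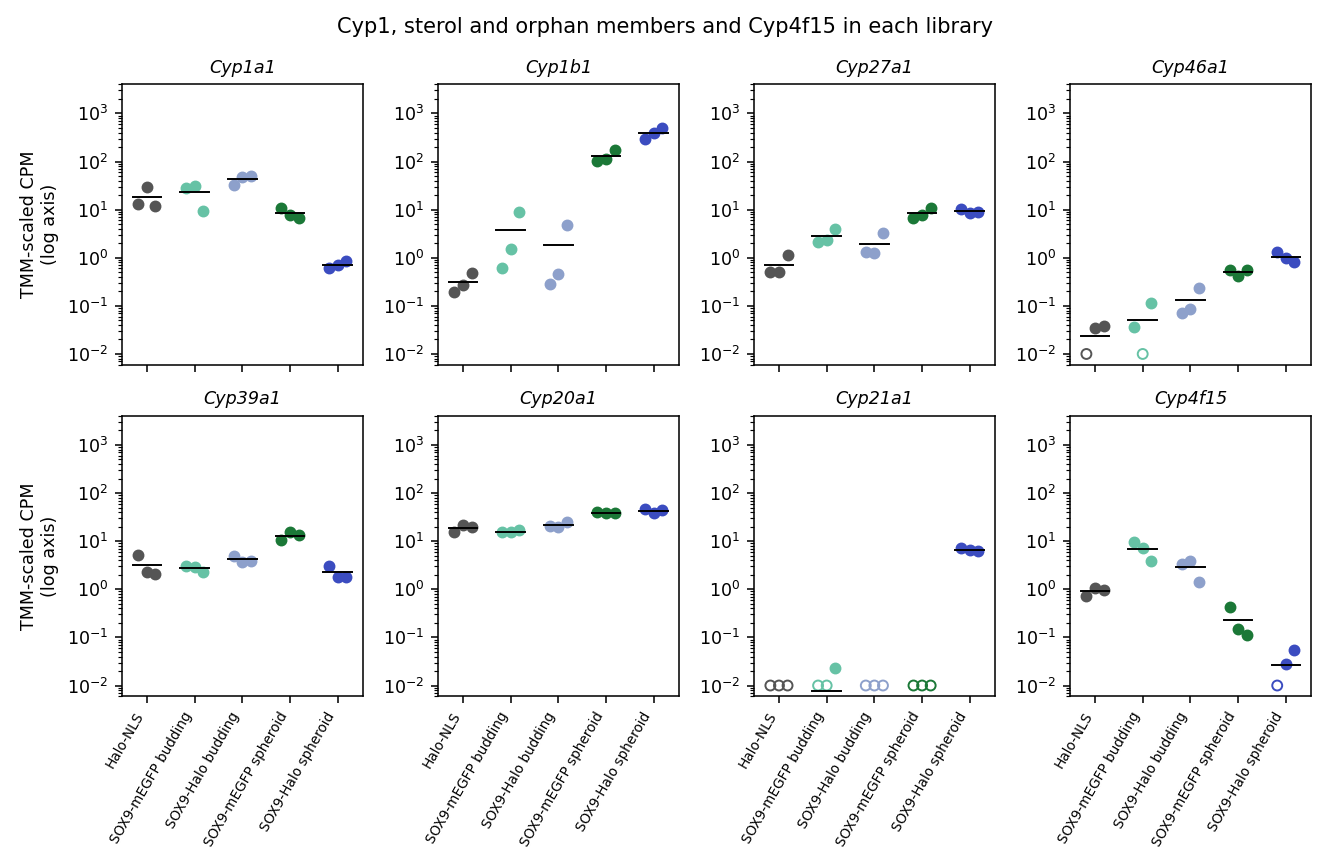
TMM-scaled CPM on a log axis in each library (points) with the mean of each condition (line) for Cyp1a1, Cyp1b1, 5 genes of family 7 and above, and Cyp4f15; open circles at the bottom mark libraries with 0 reads. Cyp1b1, Cyp27a1 and Cyp46a1 are higher in the spheroids of both lines, Cyp39a1 only in the points of SOX9-mEGFP_spheroid, and Cyp21a1 has reads almost only in SOX9-Halo_spheroid.

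Genes of family 7 and above gave 0.267% of the summed CPM in Halo-NLS, mostly through Cyp20a1 (19.05 of 24.3 CPM). Several of their sterol and vitamin enzymes were higher in spheroids. Cyp27a1, the mitochondrial sterol hydroxylase of bile acid synthesis, had 0.506, 0.513 and 1.12 CPM in Halo-NLS, 6.80, 7.82 and 10.6 in SOX9-mEGFP_spheroid and 10.5, 8.68 and 9.09 in SOX9-Halo_spheroid. The log2 fold changes were 3.55 ± 0.45 (adjusted p = 1.8e-05, edgeR) and 3.72 ± 0.45 (adjusted p = 7.9e-06). Prkag3 overlaps 32.8% of its exons but had at most 4 reads in any library. Cyp46a1, a cholesterol hydroxylase best known from neurons, had 2 reads over the 3 Halo-NLS libraries, 55 in SOX9-mEGFP_spheroid and 104 in SOX9-Halo_spheroid. The ratios to Halo-NLS were 21.1 (95% counting interval 5.56 to 178) and 42.0 (11.3 to 351), at adjusted p = 0.0006 and 4.4e-05 (edgeR). Without SOX9-Halo_spheroid replicate 1 the second call was lost, since the mean count fell below 10, and the first was lost in a fit of only the libraries compared. Cyp27b1, which makes active vitamin D and was chosen after its values were seen, had 7, 64 and 125 reads in the same conditions. Cyp11a1, also chosen after its values were seen, went the other way, with 27, 1 and 1 reads. The ratios of control to spheroid were 35.25 (95% counting interval 5.81 to 1443) for SOX9-mEGFP_spheroid and 33.44 (5.51 to 1369) for SOX9-Halo_spheroid. Of its control reads 18 came from Halo-NLS replicate 3. Its mean count was below 10, so it could not be called.

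Cyp20a1, an enzyme without a known substrate, rose about 2-fold in both lines. It had 15.4, 21.7 and 20.0 CPM in Halo-NLS, 39.8, 39.4 and 38.0 in SOX9-mEGFP_spheroid and 46.9, 38.5 and 44.6 in SOX9-Halo_spheroid. Its log2 fold changes were 1.035 ± 0.18 (adjusted p = 0.00035, edgeR) and 1.185 ± 0.18 (adjusted p = 8.2e-05). The former fell just under the limit of 1 without Halo-NLS replicate 1, with RLE size factors, in a fit of the libraries compared alone and with DESeq2.

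Cyp39a1 and Cyp21a1 were each called higher in a single spheroid line. Cyp39a1, an oxysterol hydroxylase, had 5.26, 2.29 and 2.10 CPM in Halo-NLS and 10.4, 15.4 and 13.3 in SOX9-mEGFP_spheroid, a rise of 2.02 ± 0.35 (log2, adjusted p = 0.0003, edgeR). In SOX9-Halo_spheroid it had 3.11, 1.83 and 1.82 CPM, and the change of -0.51 ± 0.35 was not called (adjusted p = 0.24). Cyp21a1, a steroid hydroxylase of the adrenal cortex, had 205, 233 and 234 reads in the SOX9-Halo_spheroid libraries and 1 read in the other 12 libraries together. With a floor of 3 reads per library it was at least 60.5-fold higher than in Halo-NLS and at least 79.1-fold higher than in SOX9-mEGFP_spheroid (adjusted p = 2e-06 and 4.2e-06, edgeR). Its exons overlap the pseudogene Tnxa over 20.9% of their length and 12.4% of its 75-base windows occur in another Cyp gene. Tnxa had at most 1 read in any library.

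Few P450 genes were called in budding organoids against control. In SOX9-Halo_budding 1 member was higher and 0 lower than in Halo-NLS, against 2.49% and 1.26% of all tested genes, and in SOX9-mEGFP_budding 1 was higher and 2 lower, against 1.99% and 0.763%. With edgeR, 11 members were higher and 8 lower in SOX9-Halo_budding at an unadjusted p under 0.05, and DESeq2 called 3 and 3. In SOX9-mEGFP_budding 9 were higher and 7 lower at an unadjusted p under 0.05, and DESeq2 called 5 and 4. The higher gene in SOX9-Halo_budding was Cyp3a59, with 0.584, 0.445 and 0.225 CPM in Halo-NLS and 2.77, 1.02 and 3.46 in SOX9-Halo_budding (log2 fold change 2.52 ± 0.49, adjusted p = 0.0071). That call was lost without any of 4 libraries in turn, Halo-NLS replicate 2 or 3 and SOX9-Halo_budding replicate 1 or 3, at adjusted p between 0.023 and 0.037. In SOX9-mEGFP_budding the higher gene was Cyp4f15, with 0.740, 1.06 and 0.974 CPM in Halo-NLS and 9.59, 7.21 and 3.88 in SOX9-mEGFP_budding (2.89 ± 0.49, adjusted p = 0.0027). It was lost without Halo-NLS replicate 2 (0.012) or 3 (0.014) or without SOX9-mEGFP_budding replicate 1 (0.011).

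The 2 lower genes in SOX9-mEGFP_budding were Cyp2c genes. Cyp2c37 had 1.77, 2.85 and 1.11 CPM against 17.9, 20.3 and 21.8 in Halo-NLS, a log2 fold change of -3.39 ± 0.44 (adjusted p = 0.00032, edgeR). Cyp2c70, which makes the muricholic bile acids of mice, had 0.652, 0.588 and 0.371 CPM against 7.17, 5.98 and 1.98, a log2 fold change of -3.24 ± 0.48 (adjusted p = 0.0016). Both kept their call without SOX9-mEGFP_budding replicate 3, while those of Cyp2c70, Cyp3a59 and Cyp4f15 were lost in a fit of only the 6 libraries compared. Between SOX9-Halo_budding and SOX9-mEGFP_budding edgeR called 0 members higher and 0 lower, against 0.29% and 0.165% of all tested genes. There, 6 were higher and 6 lower at an unadjusted p under 0.05, and DESeq2 called 2 and 1.

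Spheroids were also set against the budding organoids of their own line, so that the 2 lines share no libraries. In the SOX9-Halo line 33 members were lower and 5 higher in spheroids, against 14.7% and 10.5% of all tested genes. In the SOX9-mEGFP line 27 were lower and 5 higher, against 7.88% and 8.55%, and without SOX9-mEGFP_budding replicate 1 only 3 were higher. Of the 29 members called in both lines 26 were lower and 3 higher in both, and the direction was the same in both. Another 9 were called in the SOX9-Halo line alone and 3 in the SOX9-mEGFP line alone, which by itself shows no difference between lines. The like counts of sharing over all tested genes were not computed, so this sharing cannot be read as particular to P450 genes.

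The difference itself was tested as the interaction of line and shape. Since the SOX9-Halo spheroids were further in progression and time in culture, this test cannot tell line from passage or progression. The difference was called for 19 members, all with the more negative change in the SOX9-Halo line, against 5.58% of all tested genes with a more negative and 1.81% with a more positive change. The median difference over tested members was -2.995 (log2, SOX9-Halo minus SOX9-mEGFP), and -0.08 over all tested genes. edgeR called 0 members in the other direction, with 2 at an unadjusted p under 0.05, and DESeq2 called Cyp21a1. The 19 comprised 10 Cyp2, 4 Cyp3 and 3 Cyp4 genes with Cyp1a1 and Cyp39a1. Cyp2c65 changed by -9.93 ± 0.56 (log2) in the SOX9-Halo line and by -2.00 ± 0.38 in the SOX9-mEGFP line, a difference of -7.94 ± 0.62 (adjusted p = 9.1e-07, edgeR). Cyp3a25 changed by -11.21 ± 0.90 and by -2.71 ± 0.57, a difference of -8.50 ± 1.00 (adjusted p = 3.6e-05). Cyp1a1 changed by -5.91 ± 0.53 in the SOX9-Halo line and by -1.44 ± 0.42 in the other, a fall that edgeR did not call and DESeq2 did. Its difference was -4.475 ± 0.64 (adjusted p = 0.0002, edgeR). In contrast Cyp2u1 and Cyp4b1, chosen after their values were seen, had like fitted changes, of -5.10 ± 0.53 and -5.09 ± 0.54 for Cyp2u1 and of -3.13 ± 0.24 and -2.99 ± 0.24 for Cyp4b1.

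**Figure D4:**
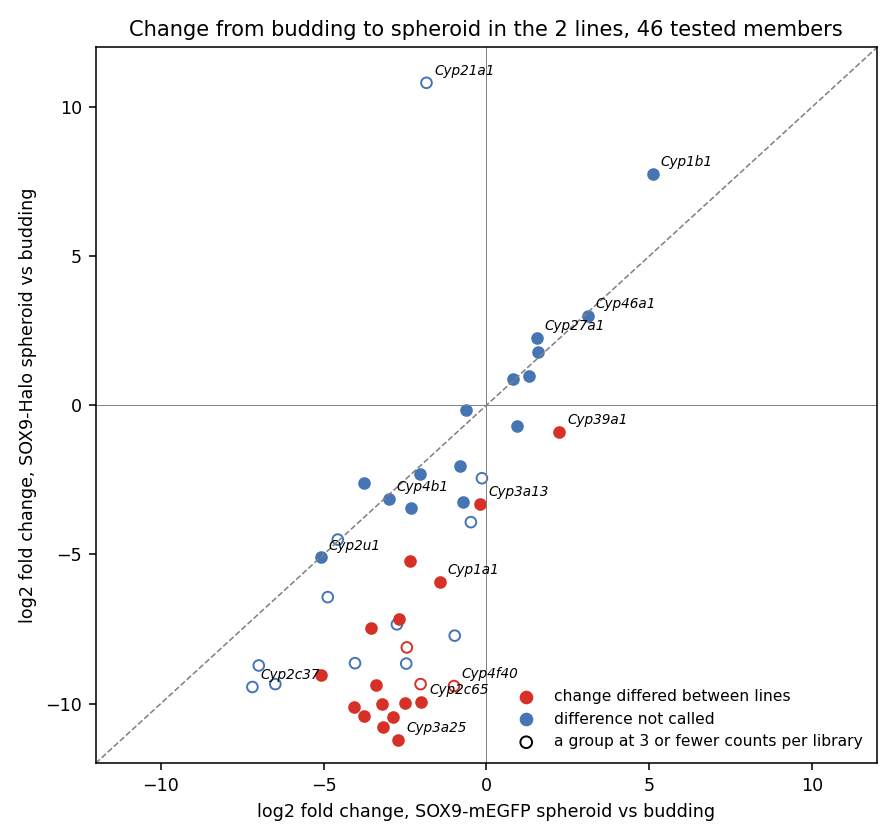
Fitted log2 fold change from budding to spheroid of the 46 tested members in the SOX9-mEGFP line (x axis) and the SOX9-Halo line (y axis), with the line of equal change dashed; red points differed between lines (19 members), and open points had a condition at 3 or fewer reads in every library, so that their position depends on the prior count. The red points lie below the dashed line.

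Directly between the spheroids, 25 members were lower and 1 higher in SOX9-Halo_spheroid than in SOX9-mEGFP_spheroid, against 9.58% and 3.59% of all tested genes. The higher gene was Cyp21a1. The lower ones were 13 Cyp2, 6 of the 7 Cyp3 and 4 Cyp4 genes with Cyp1a1 and Cyp39a1. Other cell markers moved with this contrast: 6 goblet cell markers summed to 2249 to 3567 CPM in SOX9-mEGFP_spheroid and 16.6 to 22.4 in SOX9-Halo_spheroid, and 6 Paneth cell markers to 1119 to 1358 and 3.30 to 5.89. The Paneth sum of SOX9-mEGFP_spheroid was nearly all Mmp7 (1327, 1305 and 1107 CPM), the 1 marker that rose there against Halo-NLS, while the other 5 fell. Their part in the P450 differences was not tested.

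Some of the electron donors of P450 enzymes were lower in spheroids. Of 8 redox partners 7 were tested, and 2 fell in each spheroid condition against Halo-NLS (15.3% of all tested genes in SOX9-Halo_spheroid, 12.1% in SOX9-mEGFP_spheroid) and the other 5 were not called, with medians of -0.43 in SOX9-Halo_spheroid and -0.74 in SOX9-mEGFP_spheroid. Cytochrome b5 (Cyb5a) had log2 fold changes of -2.555 ± 0.295 (adjusted p = 4.8e-06, edgeR) and -1.55 ± 0.285 (adjusted p = 0.00048). The mitochondrial outer membrane form Cyb5b was at 653 ± 219 CPM in Halo-NLS, 597 ± 59.0 in SOX9-mEGFP_spheroid and 735 ± 41.7 in SOX9-Halo_spheroid. The reductase Por, chosen after its values were seen, fell from 615 ± 107 CPM (SD, n = 3) in Halo-NLS to 185 ± 16.9 in SOX9-Halo_spheroid, and its level in SOX9-mEGFP_spheroid was 320 ± 51.4 (change -0.94 ± 0.27, adjusted p = 0.0096, under the 2-fold limit). The cytochrome b5 reductase Cyb5r3 changed by -1.32 ± 0.26 in SOX9-mEGFP_spheroid (adjusted p = 0.00086).

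Of 12 tested genes of haem synthesis and breakdown 1 rose and 1 fell in SOX9-Halo_spheroid against Halo-NLS, near or below the shares of all tested genes (13.6% and 15.3%), with a median change of -0.24. Alas1, the rate-limiting enzyme of haem synthesis, changed by -1.04 ± 0.24 (adjusted p = 0.0023, edgeR), and the haem oxygenase Hmox1, chosen after its values were seen, by 2.89 ± 0.39 (adjusted p = 2.5e-05). Of the synthesis enzymes Cpox and Alad, Cpox was near its control level of 231 ± 74.9 CPM in both spheroid lines (218 and 229 CPM). Alad had 134 ± 11.5 CPM in Halo-NLS, 122 ± 10.3 in SOX9-Halo_spheroid and 68.1 ± 2.04 in SOX9-mEGFP_spheroid, just under the 2-fold limit (-0.98, adjusted p = 0.00023). In SOX9-mEGFP_spheroid 1 gene, Urod, was called, and it fell (median of the list -0.56). Outside the naming pattern, the sterol demethylase Cyp51, an enzyme of cholesterol synthesis, was at 469 ± 92.2 CPM (SD, n = 3) in Halo-NLS, 785 ± 195 in SOX9-mEGFP_spheroid and 562 ± 96.5 in SOX9-Halo_spheroid, and neither change was called. Thromboxane synthase (Tbxas1) had 0.740 to 1.39 CPM in Halo-NLS, 0.179 to 0.255 in SOX9-mEGFP_spheroid, where it fell, and 0.620 to 1.52 in SOX9-Halo_spheroid, and Cyp3a41a had at most 25 reads in any library. Of 8 genes listed outside the pattern 3 were tested, with medians of 0.74 and -0.165 in the 2 spheroid lines.

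Many receptors that control P450 genes were lower in spheroids. Of 18 tested sensors of foreign compounds and lipids, 10 fell and 2 rose in SOX9-Halo_spheroid and 8 fell and 2 rose in SOX9-mEGFP_spheroid against Halo-NLS, with medians of -2.52 and -1.475. Of all tested genes 15.3% fell and 13.6% rose in the former comparison and 12.1% and 15.3% in the latter, so that the 2 rises are near the general share. Hnf4a had 825 to 1389 CPM in Halo-NLS, 370 to 535 in SOX9-mEGFP_spheroid and 38.6 to 59.4 in SOX9-Halo_spheroid. Its budding-to-spheroid change differed between the lines by -3.405 ± 0.345 (adjusted p = 9.7e-06, edgeR). Nr1i2, encoding PXR, had 91.2 to 119 CPM in Halo-NLS, 11.5 to 29.9 in SOX9-mEGFP_spheroid and 0.0564 to 0.349 in SOX9-Halo_spheroid. Nr1i3, encoding CAR, had 10.1 to 25.9, 0.227 to 0.740 and at most 0.0537 CPM. The vitamin D receptor gene Vdr had 215 to 476 CPM in Halo-NLS, 12.6 to 16.7 in SOX9-mEGFP_spheroid and 17.3 to 29.6 in SOX9-Halo_spheroid. Its partner Rxra had 194 to 366, 66.8 to 80.4 and 126 to 135 CPM and fell in SOX9-mEGFP_spheroid (adjusted p = 0.00042, edgeR). Nr1i2 and Nr1i3 were chosen after their values were seen, as was Ahr.

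Ahr was one of the sensors that rose, with 2.66 to 10.5 CPM in Halo-NLS, 38.9 to 70.9 in SOX9-mEGFP_spheroid and 52.4 to 59.2 in SOX9-Halo_spheroid (log2 fold changes 3.21 ± 0.40 and 3.23 ± 0.40, adjusted p = 1.7e-05 and 1e-05, edgeR). The other was the retinoic acid receptor gene Rarg. Of 6 tested genes linked to AHR, 3 rose and 1 fell in SOX9-Halo_spheroid, and 2 rose and 1 fell in SOX9-mEGFP_spheroid, with medians of 1.38 and 1.17. The single falls are near the shares of all tested genes given for the receptors. Nqo1 fell in both, from 90.8 ± 41.4 CPM (SD, n = 3) in Halo-NLS to 15.2 ± 5.26 in SOX9-mEGFP_spheroid and 1.12 ± 0.58 in SOX9-Halo_spheroid, whereas the amino acid transporter Slc7a5 rose from 105 ± 22.4 to 320 ± 153 and 515 ± 73.0. Nfe2l2, encoding NRF2, was not called (means of 198, 168 and 273 CPM). Of the AHR feedback genes Tiparp and Ahrr, named after their values were seen, Tiparp was called in neither spheroid condition. Ahrr had 2, 4 and 5 reads in Halo-NLS, 10, 16 and 10 in SOX9-mEGFP_spheroid and 0, 0 and 1 in SOX9-Halo_spheroid. Aldh3a1, chosen after its values were seen, had at most 0.187 CPM in Halo-NLS, 0.426 to 0.714 in SOX9-mEGFP_spheroid and 162 to 275 in SOX9-Halo_spheroid.

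Promoter windows from 250 bases before to 50 after the start were searched on both strands for 7 short motifs, in the 46 tested members and in 21603 gene promoters. CAAAGTC was found in 19.6% of tested members and 4.2% of all promoters, and TATAAA in 30.4% and 13.2%. Most of the tested members with CAAAGTC were Cyp2c genes of the chromosome 19 cluster, among them Cyp2c37, Cyp2c65, Cyp2c68 and Cyp2c70. Promoters of such related neighbours are not independent, so this share does not describe the tested members at large. ACAAAG, letters bound by SOX factors that can overlap CAAAGTC, was in 41.3% and 17.9%. Tested members with ACAAAG also include related Cyp2c and Cyp2d genes, among them Cyp2c65, Cyp2c68 and Cyp2d26, so the same limit holds. ACAATG, likewise bound by SOX factors, was in 17.4% and 10.7%. AGGTCA, the core letters of many nuclear receptor sites, was in 19.6% and 15%, and TTTATG, letters of CDX sites, in 13% and 11%. GCGTG was in 28.3% of tested members and 37.2% of all promoters. These matches are descriptions of letters in one window, and no binding was measured.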

How the data were processed

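Poly-A RNA-seq counts of 15 organoid libraries, 3 for each of 5 conditions, were used. Per the methods of the study, the authors trimmed reads with cutadapt 4.5, aligned them to the mouse genome (GRCm39) with STAR, keeping unique alignments, and deposited gene counts made with HTSeq 2.0.2 in union mode without strand. Unstranded counting cannot separate overlapping genes, and unique alignment misses reads that near-identical Cyp genes share. Ambiguous reads, 9.65% to 13.56% per library, were left out, as were tables of normalized counts and of the authors' own comparisons.

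Counts were fitted with edgeR 4.0.16 (R 4.3.3, TMM, filterByExpr by condition, quasi-likelihood, Benjamini-Hochberg) over 17560 of 78298 genes. Calls used the limits of the study: adjusted p up to 0.01, fold 2 or more either way, and 10 or more normalized counts on average. An SE is the fold change divided by the root of F. Fits were tested on simulated data. For genes with 3 or fewer reads in every library of a condition, ratios of reads with exact 95% intervals, or bounds from a floor of 3 reads, replace the fold change. Those intervals cover counting error only. Alternatives were RLE factors, library sizes alone, no filter, other thresholds, a replicate block, only the libraries compared, each library left out, and DESeq2 1.42.0. Lengths, overlaps and promoters came from GRCm39 with GENCODE annotation.

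Members and lists were chosen with earlier results of these data known. Genes were named by rule: the 3 most abundant per family group, the 3 largest called changes each way per comparison, all called in budding organoids and the 3 most abundant of each list. Same-numbered libraries had r above 0.1 for all 3 numbers only between SOX9-Halo_budding and SOX9-Halo_spheroid (r = 0.403, 0.234 and 0.344 over 11054 genes, mean of other pairs -0.17). Single numbers correlated more strongly elsewhere, with r = 0.47, 0.817 and -0.0545 between Halo-NLS and SOX9-Halo_budding. Between SOX9-mEGFP_budding and SOX9-Halo_budding r was 0.0402, 0.358 and 0.74. Shared replicate structure in those conditions was not tested. The pairing within the SOX9-Halo line comes from the correlation alone, and a block within its 2 conditions kept 22 of 22 calls.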

Additional observations from a re-analysis of the deposited data

Results flagged for a closer look

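The change from budding to spheroid differed between lines for 19 members by a test of the difference itself (interaction of line and shape, edgeR, adjusted p of at most 0.01). Each value is the log2 change in the SOX9-Halo line minus that in the SOX9-mEGFP line, and all were negative. Line, passage and progression of the spheroid shape cannot be told apart in these values. The most negative were Cyp3a25 at -8.499, Cyp4f40 at -8.418, Cyp2c65 at -7.937, Cyp2c68 at -7.606 and Cyp4f14 at -7.580. Cyp2c55 had -7.472, Cyp3a59 -7.325, Cyp2c29 -6.825, Cyp2d26 -6.675 and Cyp2c66 -6.069. Cyp3a11 had -5.987, Cyp2c67 -5.672, Cyp2j9 -4.476, Cyp1a1 -4.475 and Cyp4v3 -3.955. Cyp2b10 had -3.910, Cyp39a1 -3.141, Cyp3a13 -3.114 and Cyp2j6 -2.877. Cyp4f40, Cyp3a59 and Cyp2c67 had 3 or fewer reads in every SOX9-Halo_spheroid library, so the size of their value depends on the prior count. Cyp3a25 (4, 1 and 5 reads), Cyp2c68 (1, 3 and 4) and Cyp2j9 (3, 4 and 2) lay just above that floor there. The size and rank of their values are therefore uncertain too.

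Cyp39a1 was flagged through a rise in the SOX9-mEGFP line (2.24 ± 0.35), while its change in the SOX9-Halo line was not called. The call of Cyp3a13 was lost without any of 5 libraries in turn, SOX9-Halo_budding replicate 1, SOX9-mEGFP_spheroid replicates 1 and 2 and SOX9-Halo_spheroid replicates 2 and 3, at adjusted p from 0.01 to 0.015. Conditions of 3 libraries were not examined for outlying samples.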

How the results depend on the processing

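Of 1708 values recomputed for named genes, 1648 kept their direction and their side of the threshold, 60 kept the direction but lost the call and 0 reversed. Of 266 recomputed counts of called members 214 stayed within 1.5 times, and 2 of 30 summed levels moved by more than the spread. The moved counts were small ones of budding organoids and of rises. With DESeq2, members higher and lower in SOX9-Halo_budding against Halo-NLS were 3 and 3, in SOX9-mEGFP_budding 5 and 4, and between the budding conditions 2 and 1. Without the filter on low counts the same counts were 8 and 4, 8 and 5, and 4 and 3, and 2 members were higher in SOX9-Halo_spheroid than in SOX9-mEGFP_spheroid. At an adjusted p of 0.05 they were 7 and 3, 8 and 4, and 1 higher between the budding conditions. With library sizes alone 3, 3 and 1 were higher. With only the libraries compared, 0 were higher in each budding condition and 1 lower in SOX9-mEGFP_budding, 5 were higher in SOX9-mEGFP_spheroid against Halo-NLS and 2 in SOX9-Halo_spheroid against SOX9-mEGFP_spheroid. At a log2 fold change of 2, 3 rather than 5 rose from budding to spheroid in the SOX9-mEGFP line. A more positive change in the SOX9-Halo line was called for 1 member with DESeq2, RLE factors, only the libraries compared or an adjusted p of 0.05, and for 2 without the filter. With a replicate block, which pairs libraries by number alone, 2 were higher and 3 lower in SOX9-Halo_budding, 3 higher and 5 lower in SOX9-mEGFP_budding, and 1 lower between the budding conditions, and 115 of 115 gene calls held. The causes were not tested.

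Leaving out each library in turn gave 5 to 7 members higher in SOX9-mEGFP_spheroid against Halo-NLS, 0 to 2 higher and 0 to 1 lower in SOX9-Halo_budding, 0 to 2 higher in SOX9-mEGFP_budding, 3 to 5 higher from budding to spheroid in the SOX9-mEGFP line, 0 to 1 higher between the budding conditions and 0 to 1 with a more positive change in the SOX9-Halo line. Falls held better: 32 to 33 in SOX9-Halo_spheroid against Halo-NLS, 21 to 30 from budding to spheroid in the SOX9-mEGFP line and 16 to 21 with a more negative change in the SOX9-Halo line.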
